A study of Mus musculus with 8 samples.

Results

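The contacts described here join the gene desert of the mouse Sox9 locus to the side of that desert on which Sox9 lies. They are all pairs of 10 kb bins with 1 bin in the desert (mm9, chromosome 11, 111410001 to 112480000) and the other on the gene side (112520001 to 113030000), without the 4 bins around Sox9 itself (112620001 to 112660000). The choice rests on coordinates, which were set with earlier results of these data known. It gave 5029 bin pairs, from 107 desert bins and 47 gene-side bins, of the 172578 pairs in a map of 587 bins from 109010001 to 114880000. Capture Hi-C counts ligation products between restriction fragments of a captured stretch of genome, here made from fore- and hindlimb buds of mouse embryos at E12.5. Each library pooled the limb buds of 3 to 8 embryos, so cell types of the limb bud are averaged and each genotype is 1 library.

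All 8 libraries came from homozygous mutants made with CRISPR/Cas9 on the G4 ESC (embryonic stem cell) background. ∆BorC1, ∆BorC1-2, ∆BorC1-4 and ∆CTCF, called the deletion libraries here, carry deletions, and the labels do not define C1 to C4. BorKnockIn, InvC, InvIntra and InvC∆Bor, called the rearranged libraries, carry by name an inserted boundary, inversions, or an inversion together with a boundary deletion. Wildtype limb buds and the remaining mutant of the study were not analysed here, so no value below is relative to an unedited locus.

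The product of Sox9 is a transcription factor on which cartilage formation depends, and Sox9 expression in the limb depends on enhancers spread through the desert. A gene desert of this kind is folded into a topologically associating domain, a stretch whose parts contact each other more than they contact the neighbouring domain. Domain edges often carry binding sites for CTCF, a protein at which the loop-extruding cohesin complex pauses, and the orientation of a CTCF site affects which side it contacts. At this locus a boundary separates the domain of Kcnj2, a potassium channel gene, from that of Sox9. RefSeq lists 7 genes between Kcnj2 and Sox9, of which 1 (Gm11677) is protein coding, and 9 genes with 0 protein coding between Sox9 and Slc39a11 on its other side. Sox9 was placed in the bins left out above from general knowledge of mm9.

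The place of the boundary relative to the desert differed between the libraries. The bin of the original boundary, 111390001 to 111400000, lies just left of the desert and was nearly empty in the deletion libraries, with counts of 4 (∆BorC1), 0 (∆BorC1-2), 8 (∆BorC1-4) and 1 (∆CTCF). It held 13844 in BorKnockIn, 21716 in InvC, 28151 in InvIntra and 12924 in InvC∆Bor, but in BorKnockIn, InvC and InvC∆Bor other sequence lies at that coordinate. Read at the same coordinate, bin coverage of the desert in InvC correlated with that of ∆BorC1 at r = -0.01, and read in mirrored order (223.899 Mb minus the position) at 0.897. The corresponding pair of values was -0.01 and 0.907 in InvC∆Bor, and 0.02 and 0.881 in InvIntra with its mirror at 223.9175 Mb. For InvC and InvC∆Bor the mirror places the original boundary between the desert and the gene side, in the bin from 112500001 to 112510000, which held 20049 contacts in InvC and 131 in InvC∆Bor. In InvIntra, whose mirror constant is larger, the boundary bin was taken to lie in place, left of the mirrored stretch.

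In BorKnockIn the desert matched ∆BorC1 best when positions were read 20 kb to the left of the sequence (r = 0.903), and the gene side when read 10 kb to the left (r = 0.830). About 10 kb of additional sequence therefore lay between them in that map, and less sequence left of the desert. Gene-side coverage of the other libraries matched ∆BorC1 at the same coordinates, with r from 0.977 to 0.997. By these readings, extra or boundary sequence stood between desert and gene side in InvC and BorKnockIn, was taken to stand left of the desert in InvIntra, and was missing from that boundary bin in the deletion libraries and InvC∆Bor. Below, "by position" means the coordinate in the deposited map and "by sequence" means the desert bins put back into their mm9 order. The desert correlations of coverage are descriptions over 107 bins that share the capture design.

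Libraries held 3056502 (InvC∆Bor) to 9045698 (∆BorC1-4) raw contacts, and the desert and gene side held 92909 (InvC∆Bor) to 334730 (∆BorC1-4) of them. The median bin pair had 16 contacts in InvC∆Bor and 58 in ∆BorC1-4. No desert or gene-side bin had under 0.516 of its library's median coverage, and 1 of the 5029 pairs was without a contact in InvC∆Bor and 0 in the other libraries. The share is the percent of a library's raw contacts at least 20 kb apart that fall on these pairs, and the relative contact is the balanced (KR) value of a pair divided by the library's own mean at that distance, so that 1 is the library's average for that distance. Intervals are 95% and cover counting error only, and without replicate libraries no difference between genotypes was tested.

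Contact between the desert and the gene side was highest in the deletion libraries and InvIntra, intermediate in BorKnockIn and InvC∆Bor, and lowest in InvC. Its share was 5.97% in ∆BorC1 (5.94 to 5.99), then 5.34% in ∆BorC1-4, 5.26% in ∆BorC1-2, 5.18% in ∆CTCF and 5.17% in InvIntra (5.15 to 5.19). It was 4.46% in InvC∆Bor (4.43 to 4.49), 3.73% in BorKnockIn (3.71 to 3.75) and 2.77% in InvC (2.75 to 2.78). The mean relative contact was 1.56 in ∆BorC1 (1.55 to 1.56), 1.44 in ∆BorC1-4, 1.44 in ∆CTCF, 1.41 in ∆BorC1-2 and 1.39 in InvIntra. It was 1.17 in InvC∆Bor (1.16 to 1.18), 1.12 in BorKnockIn (1.11 to 1.13) and 0.774 in InvC (0.768 to 0.780). InvC was the only library of the 8 in which the mean of these pairs lay below 1. With the sum of contacts over the sum of expectations, BorKnockIn was also below 1, at 0.872, as was InvC, at 0.655, and the median pair of BorKnockIn had 0.964. BorKnockIn and InvC∆Bor stood next to each other by relative contact, while their shares did not come near each other.

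**Figure D1:**
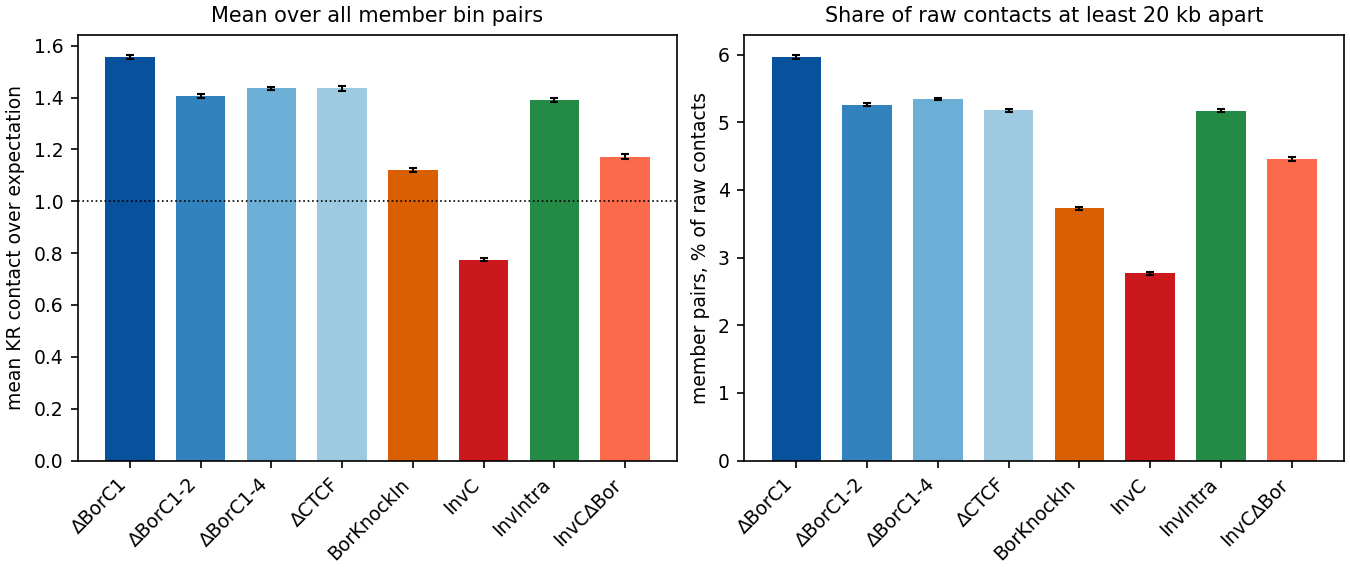
Contact between desert and gene side in each of the 8 libraries, as the share of raw contacts at least 20 kb apart (percent) and as mean relative contact (balanced value over the library's mean at the same distance), with 95% intervals for counting error. InvC lies lowest in both measures, at 2.77% and 0.774, and ∆BorC1 highest, at 5.97% and 1.56.

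Within a library the relative contact varied several-fold over the bin pairs. From the lowest to the highest 10% of pairs it ran from 0.830 to 2.31 in ∆BorC1, around a median of 1.47. In InvC it ran from 0.389 to 1.23 around 0.704. In BorKnockIn it ran from 0.472 to 1.95 around 0.964.

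The 5029 pairs were gathered into 55 blocks, 11 parts of the desert by 5 of the gene side, each about 100 kb by 100 kb. The last part of the desert, from 112.41 to 112.48 Mb, is 70 kb. The gene-side parts run from 112.52 to 112.62 Mb, left of Sox9, and then to the right of Sox9 from 112.66 Mb to 113030000. Block contacts ranged from 1055 in InvC∆Bor to 17803 in ∆BorC1-4. In ∆BorC1 the relative contact of the blocks ran from 0.641 to 3.13, with a median of 1.59. In InvIntra it ran from 0.633 to 3.42 with a median of 1.34, and in BorKnockIn from 0.378 to 3.38 with a median of 1.03. In InvC∆Bor it ran from 0.646 to 2.2 with a median of 1.17, and in InvC from 0.355 to 1.55 with a median of 0.772. The highest block of InvC was therefore about as high as the median block of ∆BorC1.

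The highest blocks lay in the left portion of the desert and the lowest toward its right end. In each of the 8 libraries the highest block joined the last gene-side part, which starts at 112.96 Mb, to a desert part in the left portion of the desert. That desert part began at 111.71 Mb in ∆BorC1 (3.13), at 111.51 Mb in ∆BorC1-2 (2.69) and at 111.41 Mb in the other 6 libraries. The lowest block lay toward the right end of the desert, in the last part or the one before it. In the deletion libraries it joined 112.41 to 112.48 Mb with 112.66 to 112.76 Mb, with 0.64 (∆BorC1), 0.55 (∆BorC1-4), 0.54 (∆BorC1-2) and 0.55 (∆CTCF). In BorKnockIn it joined the same desert part with 112.52 to 112.62 Mb (0.38), and in InvC, InvIntra and InvC∆Bor it joined 112.31 to 112.41 Mb with 112.66 to 112.76 Mb (0.35, 0.63 and 0.65).

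**Figure D2:**
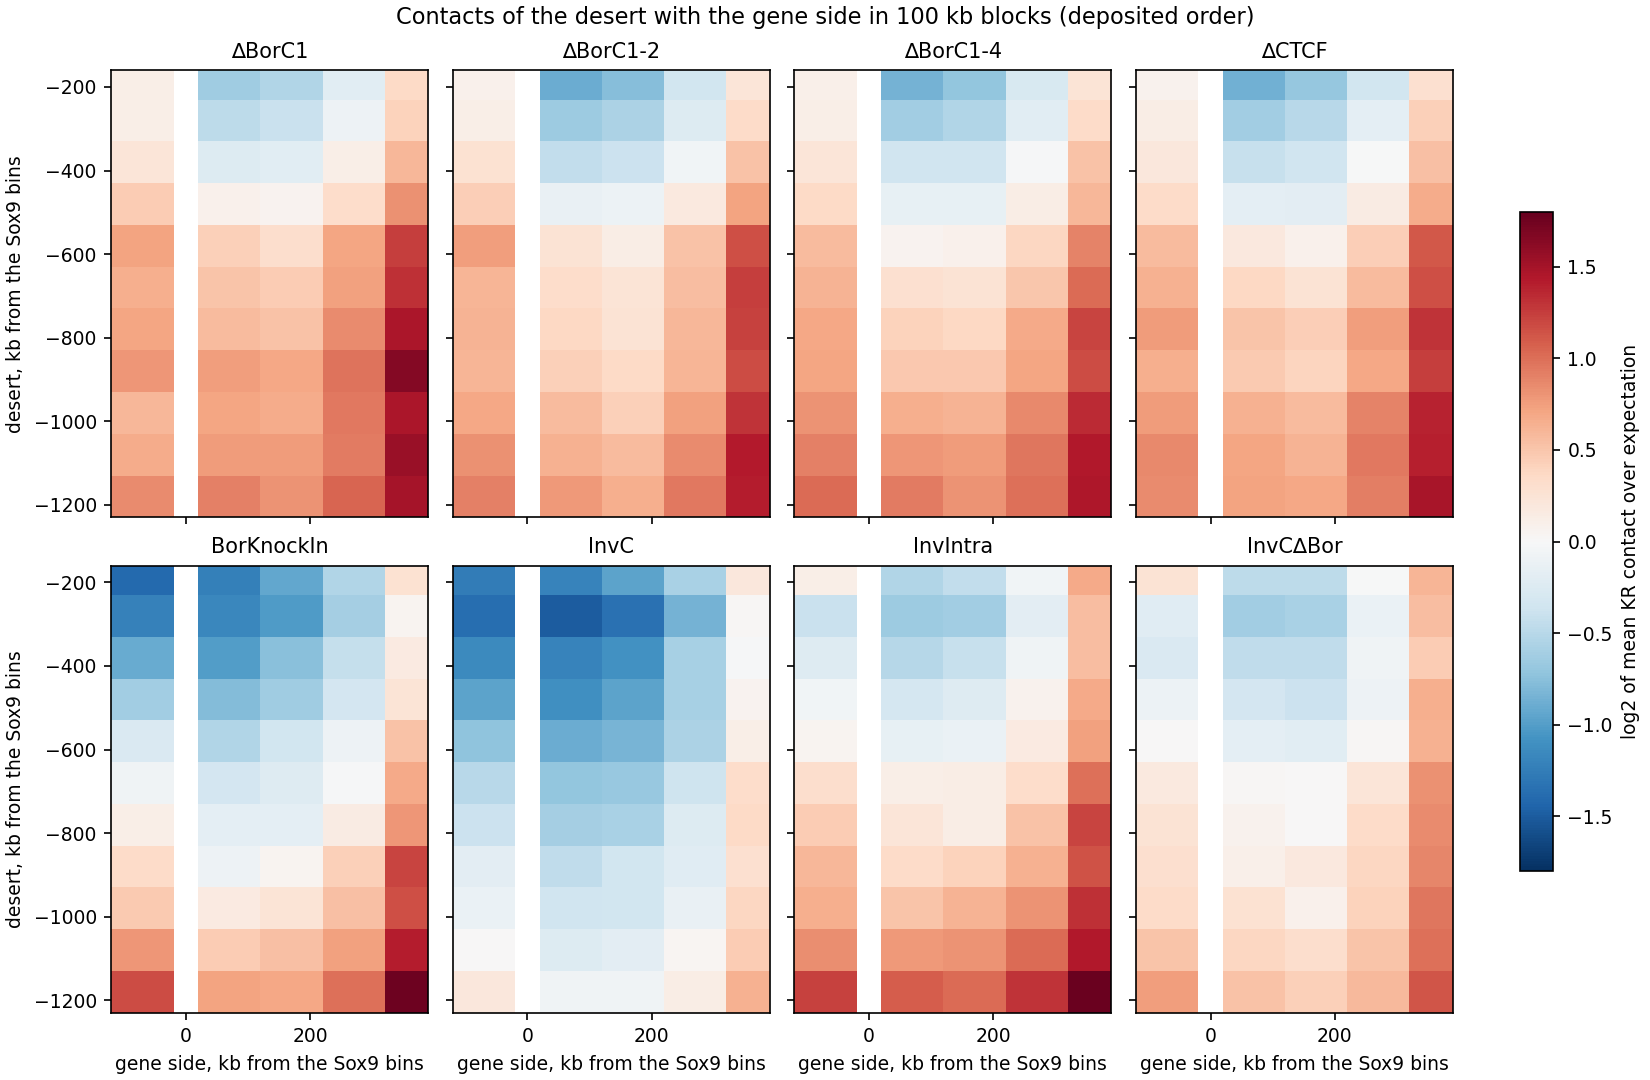
Relative contact (log2 colour scale) of the 55 blocks in each library, with desert parts by position on 1 axis and gene-side parts on the other. Blocks toward the left end of the desert and the far edge of the gene side are highest in each library, and blocks toward the right end of the desert are lowest, down to 0.35 in InvC.

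Along the desert, relative contact with the gene side was highest at the left end, far from Sox9, and broadly lower toward it. The first and last desert parts had 2.02 (1.98 to 2.05) and 0.889 (0.875 to 0.904) in ∆BorC1, 2.05 and 0.828 in ∆BorC1-4, 1.90 and 0.809 in ∆BorC1-2, and 1.90 and 0.822 in ∆CTCF. The left end was thus 2.27 to 2.47 times the right end in the deletion libraries. In the others it was 2.42 and 0.976 in InvIntra, 1.60 and 1.00 in InvC∆Bor, 1.11 and 0.605 in InvC, and 2.10 and 0.609 in BorKnockIn. The steepest decline was that of BorKnockIn, at 3.45 times, and the shallowest that of InvC∆Bor, at 1.59 times. In InvC only the first parts, with 1.11 at 111.41 Mb and 1.01 at 111.51 Mb, reached the library's average for their distance.

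The decline along the desert followed position and not sequence in the inverted libraries. In InvC, InvIntra and InvC∆Bor the left end of the map carries the sequence that lies nearest Sox9 in mm9. Read by sequence, the first and last desert parts had 0.98 and 2.30 in InvIntra, 1.02 and 1.61 in InvC∆Bor, and 0.60 and 1.13 in InvC. In all 3, then, the desert sequence that lies farthest from Sox9 in mm9, now placed near it, had the lower relative contact. Raw contacts, not divided by the mean at their distance, ran the other way. The first and last parts, of 7 to 9 bins, had 24689 and 14559 in InvIntra, 16675 and 4936 in InvC∆Bor, and 14745 and 5471 in InvC. Over the 55 blocks, the correlation with ∆BorC1 was 0.861 by position and -0.11 by sequence in InvC. It was 0.901 and -0.28 in InvIntra, and 0.892 and -0.08 in InvC∆Bor. Blocks of a library share its depth and its distance curve, so these correlations are descriptions. The deletion libraries correlated with ∆BorC1 at 0.969 to 0.980.

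**Figure D3:**
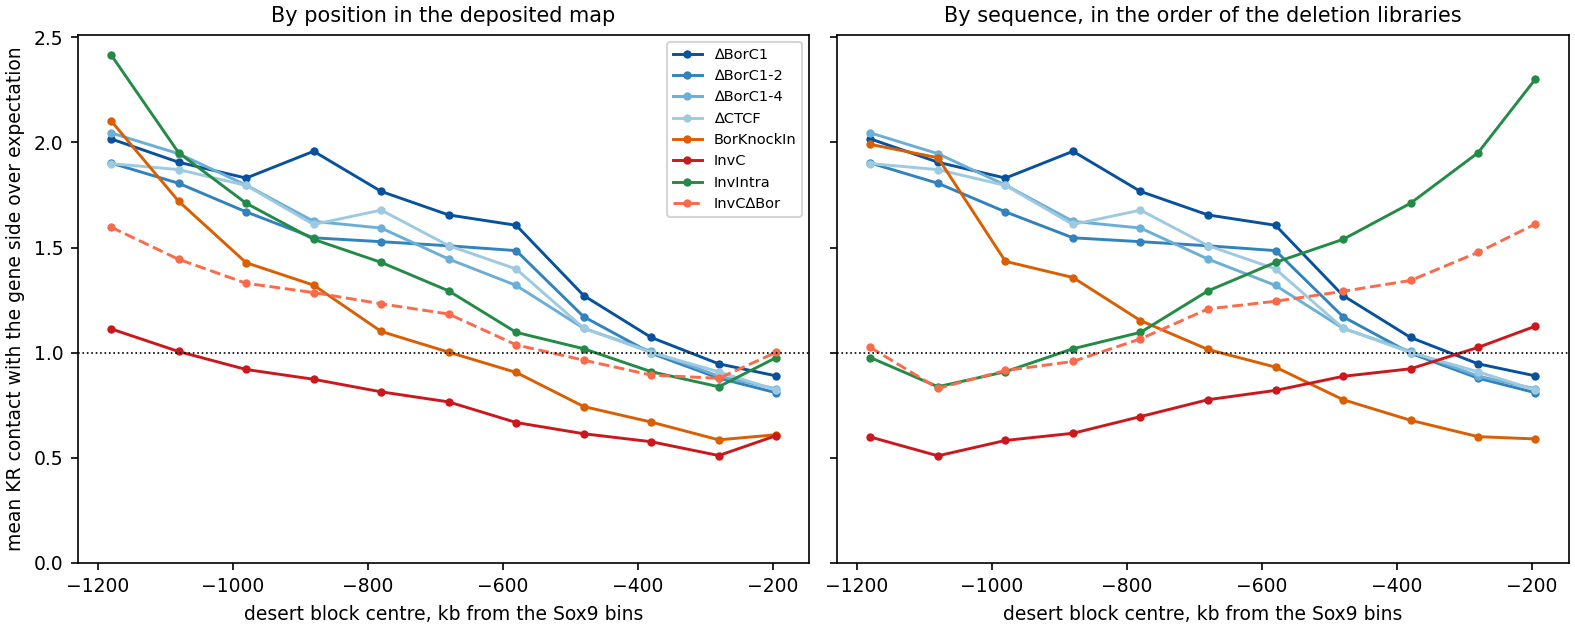
Mean relative contact with the gene side along the desert in 100 kb parts, by position in the map and by sequence in mm9 order, 1 line per library. By position all 8 lines are higher at the left end than at the right, and by sequence InvC, InvIntra and InvC∆Bor are higher at the right end.

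A finer pattern was more alike by sequence in most pairs of libraries, but not in all. After the broad trend was taken away (a running median over 210 kb), the 10 kb profiles of InvIntra and InvC∆Bor correlated at 0.33 by position and 0.64 by sequence, and those of BorKnockIn and InvIntra at 0.00 and 0.51. In the opposite direction, InvC and InvIntra correlated at 0.41 by position and 0.35 by sequence, and BorKnockIn and InvC at 0.04 and -0.22. The value was higher by sequence in 4 of the 6 pairs of rearranged libraries. These include InvC with InvC∆Bor, which share a mirror and so align alike in both orders (0.3785 by position and 0.3787 by sequence). The correlation was also higher by sequence in 14 of the 16 pairs of a deletion with a rearranged library. Those pairs were weak in either order, from -0.18 to 0.10 by position and from -0.07 to 0.24 by sequence. Among the deletion libraries, whose sequence order is the same, this correlation was 0.36 to 0.62. Neighbouring 10 kb bins and all profiles share the capture design, so the part that bin composition has in this was not tested.

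On the gene side the contact with the desert formed a trough to the right of Sox9 and a high edge at the end of the interval. In ∆BorC1 the 5 gene-side parts had 1.49, 1.33, 1.30, 1.58 and 2.32, from left to right. In InvC they had 0.72, 0.62, 0.65, 0.80 and 1.21, and in BorKnockIn 1.06, 0.87, 0.93, 1.14 and 1.83. The levels differ between the libraries, but in all 8 the lowest part lies between 112.66 and 112.86 Mb and the highest is the last. The highest single bin was the one at 113.02 Mb in 7 libraries and the one at 113.01 Mb in BorKnockIn, where the map is shifted to the left. It reached 3.17 in ∆BorC1, 2.99 in InvIntra, 2.45 in BorKnockIn and 1.78 in InvC.

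The last 30 kb of the gene side, from 113.00 Mb, had 2.78 in ∆BorC1 against 1.21 for the 30 kb from 112.75 Mb, a ratio of 2.29 (2.22 to 2.36). This ratio was lowest in ∆BorC1-4, at 2.07 (2.02 to 2.12), and highest in InvC, at 2.47 (2.37 to 2.56), with 1.47 at the edge and 0.597 in the middle. BorKnockIn had 2.44, or 2.57 (2.48 to 2.66) with its gene side read 1 bin to the left, which would be the highest. In each library the edge had more than 2 times the contact of the middle.

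Contact also differed across Sox9. The 30 kb left of the Sox9 bins had 1.64 in ∆BorC1 and the 30 kb right of them 1.43, a ratio of 1.15 (1.12 to 1.18). It was 1.29 in ∆BorC1-2, 1.28 in ∆BorC1-4, 1.25 in ∆CTCF, 1.24 in BorKnockIn, 1.23 in InvIntra, 1.19 in InvC∆Bor and 1.11 (1.07 to 1.15) in InvC. With its gene side read 1 bin to the left, BorKnockIn had 1.13 (1.10 to 1.17). In all 8 libraries the desert side of Sox9 had the more contact. The lowest ratios, of ∆BorC1, InvC and the shifted BorKnockIn, had overlapping intervals.

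**Figure D4:**
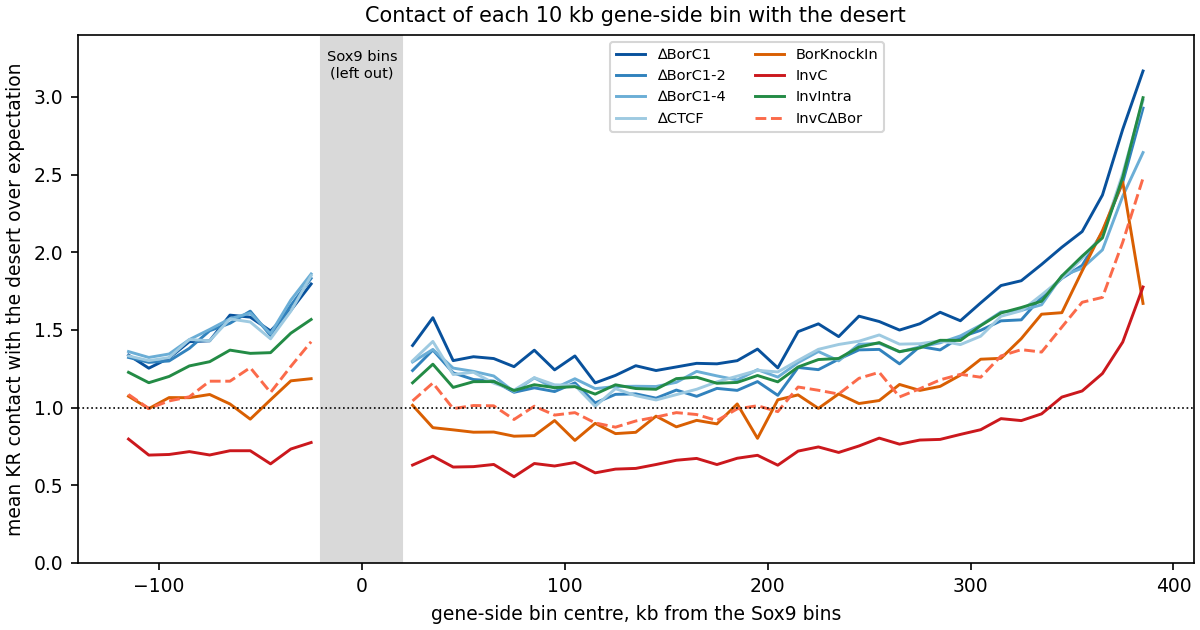
Mean relative contact of each 10 kb gene-side bin with the desert, by position, 1 line per library, in kb from Sox9, with the 4 bins around Sox9 left out. Each line drops across Sox9, is lowest between 112.71 and 112.76 Mb and is highest at 113.01 or 113.02 Mb.

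InvC was compared with InvC∆Bor, which by label has the inversion together with a boundary deletion. These are single libraries, so the part that the deletion has in their difference was not tested. Contact was lower in InvC in 55 of 55 blocks. The mean relative contact was 0.774 against 1.17, a ratio of 0.660 (0.653 to 0.667). InvC was past 1.5-fold lower in 30 of the 55 blocks and past 1.5-fold higher in 0, while 4.00% of 750 blocks of the whole map were past 1.5-fold lower and 2.00% higher. Those 750 blocks also cover the desert with the gene side. The median log2 difference was -0.60 over the 55 blocks and 0.00 over the map. In the flanks, over 300 kb left of Kcnj2 or right of the gene side, 211 blocks of the same 2 libraries were read. The parts they join lay 100 kb to 1.5 Mb apart and were not matched to the distances of the 55 blocks. These flank blocks differed by -0.56 to 0.31 on the log2 scale, with an SD of 0.09.

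The difference between InvC and InvC∆Bor extended through the whole desert. The ratio in the 11 desert parts was 0.70 in the first, 0.66 in the part from 111.81 Mb, 0.64 in the part from 112.01 Mb and 0.60 in the last. It ran from 0.62 to 0.70 over the gene-side parts. The block nearest the 112.50 Mb site on both sides, 112.41 to 112.48 with 112.52 to 112.62 Mb, was the lowest. It had 0.418 in InvC, from 3748 contacts, and 1.20 in InvC∆Bor, from 6302 contacts, a ratio of 0.350 (0.336 to 0.364). At the far corner, the same desert part with the last gene-side part had the highest ratio, 0.755.

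Against ∆BorC1, BorKnockIn had less contact, most of it away from the left end of the desert. The mean relative contact was 1.12 against 1.56, a ratio of 0.721 (0.715 to 0.727). Contact was lower in 52 of the 55 blocks, past 1.5-fold lower in 29 and past 1.5-fold higher in 0. Over the map 5.87% of blocks were past 1.5-fold lower and 4.53% higher, and the median log2 difference was -0.59 over the 55 blocks and 0.03 over the map. Flank blocks differed by -0.38 to 0.41 with an SD of 0.13. BorKnockIn also differs from ∆BorC1 by its shifted coordinates, and reading its gene side 1 bin to the left gave a ratio of 0.710. With the desert read by sequence, 24 of the 55 blocks were past 1.5-fold lower and 0 past 1.5-fold higher. No share over the map was read in that order.

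The ratio of BorKnockIn to ∆BorC1, by position, changed along the desert. In the first part, 111.41 to 111.51 Mb, it was 1.04, in the next 0.90, and from there it decreased to 0.56 in the part from 112.01 Mb, with 0.69 in the last. By sequence the first part had 1.99 in BorKnockIn against 2.02 in ∆BorC1, and the next 1.93 against 1.91. The left end was thus near ∆BorC1 in either order, and the values below are by position. The block of the first desert part with 112.52 to 112.62 Mb was higher in BorKnockIn, with 2.25 from 4268 contacts against 1.81 from 2838 contacts, a ratio of 1.24 (1.19 to 1.31). The lowest block was the same one as in InvC, next to 112.50 Mb. It had 0.378 in BorKnockIn, from 3836 contacts, and 1.08 in ∆BorC1, from 9040 contacts, a ratio of 0.350 (0.337 to 0.363). The 2 comparisons thus had like ratios at the site itself, while in the first desert part the ratio was 1.04 for BorKnockIn and 0.70 for InvC. They use different reference libraries, and the difference between the ratios was not tested.

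Corner windows of 30 kb by 30 kb were also read at the extremes. At the inner corner, 112.45 to 112.48 with 112.52 to 112.55 Mb, relative contact was 0.302 in InvC (0.277 to 0.328, 560 contacts) and 0.318 in BorKnockIn (0.293 to 0.346, 554 contacts). It was 0.958 to 1.19 in the other 6 libraries, with the highest value in InvC∆Bor. InvC and BorKnockIn overlapped in their intervals and did not overlap with the rest. At the outer corner, 111.41 to 111.44 Mb with the last 30 kb of the gene side, InvC was again lowest at 1.98 (1.71 to 2.29, 183 contacts), and InvIntra highest at 4.82 (4.43 to 5.23, 568 contacts). Between them lay InvC∆Bor at 2.46 (2.08 to 2.89), BorKnockIn at 2.81, ∆BorC1-4 at 3.24, ∆BorC1-2 at 3.54, ∆CTCF at 3.77 and ∆BorC1 at 3.84 (3.45 to 4.27). The outer corner of BorKnockIn was read 1 bin to the left on the gene side. At this corner BorKnockIn was below ∆BorC1, with 2.81 (2.46 to 3.19) against 3.84. The whole block of the first desert part with the last gene-side part went the other way. It had 3.38 in BorKnockIn against 2.83 in ∆BorC1, a ratio of 1.20 (1.13 to 1.27).

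InvIntra and InvC∆Bor, both inverted, differed in the left portion of the desert. The boundary bin was taken to lie left of the desert in InvIntra, and in InvC∆Bor the bin into which its mirror falls held few contacts. The mean relative contact was 1.39 against 1.17, a ratio of 1.19 (1.18 to 1.20), and InvIntra was higher in 47 of the 55 blocks. The median log2 difference was 0.14 over the 55 blocks and 0.03 over the map. InvIntra was past 1.5-fold higher in 2 blocks and lower in 0, where the map had 3.20% higher and 11.1% lower, near the background share for higher blocks. The flank blocks of this pair differed by -0.31 to 0.76 with an SD of 0.12, a range that holds the whole range of the 55 blocks (-0.19 to 0.71).

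The ratio of InvIntra to InvC∆Bor was 1.51 in the first desert part, 1.35 and 1.29 in the next 2, 1.09 in the part from 111.91 Mb and 0.97 in the last. The highest block, 111.41 to 111.51 with 112.86 to 112.96 Mb, had 2.46 from 3994 contacts in InvIntra and 1.5 from 1195 contacts in InvC∆Bor, a ratio of 1.64 (1.54 to 1.75). The lowest, 112.31 to 112.41 with 112.52 to 112.62 Mb, had a ratio of 0.877. The ratio was thus highest at the left end of the desert and near 1 at the right end.

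The inversion without a boundary in between, InvC∆Bor, was set against ∆BorC1. Its mean relative contact was lower, 1.17 against 1.56, a ratio of 0.753 (0.747 to 0.760). By position, 49 of the 55 blocks were lower, 8 past 1.5-fold lower and 0 past 1.5-fold higher. The median log2 difference was -0.45 over the 55 blocks and 0.02 over the map. Over the map 1.47% of blocks were past 1.5-fold lower and 0.667% higher, and the flanks differed by -0.41 to 0.44 with an SD of 0.12. The lowest block was 111.71 to 111.81 Mb with the last gene-side part, which had 1.84 from 1207 contacts against 3.13 from 2946 contacts, a ratio of 0.587 (0.549 to 0.627). By position the only desert part in which InvC∆Bor exceeded ∆BorC1 was the last, at 1.13, while the gene-side parts had ratios of 0.74 to 0.78. By sequence the counts were different, with 25 of the 55 blocks past 1.5-fold lower and 8 past 1.5-fold higher, and log2 differences from -1.41 to 1.14. The shares over the map were read by position only, so these counts have no share beside them. InvC∆Bor then exceeded ∆BorC1 in the last 4 desert parts, from 1.29 against 1.27 at 112.11 Mb to 1.61 against 0.889 at 112.41 Mb.

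The stepwise deletions differed little from each other between desert and gene side. From ∆BorC1 to ∆BorC1-2 the mean ratio was 0.904 (0.898 to 0.911), lower in 50 of the 55 blocks. The median log2 difference of this pair was -0.16 over the 55 blocks and 0.00 over the map. From ∆BorC1-2 to ∆BorC1-4 it was 1.02 (1.01 to 1.03), and from ∆BorC1-4 to ∆CTCF 1.00 (0.993 to 1.01). In these 3 comparisons 0 of the 55 blocks were past 1.5-fold in either direction, and 0.00% of the blocks of the map were. The flank blocks differed by -0.38 to 0.22, -0.25 to 0.46 and -0.41 to 0.24 on the log2 scale, and the 55 blocks by -0.47 to 0.15, -0.27 to 0.20 and -0.20 to 0.23. The second of these ratios turned its direction, to 0.954, when the distance curve was taken from the flanks.

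Within these small differences the lower values in ∆BorC1-2 centred on a single desert part. Its ratio to ∆BorC1 was 0.79 in the part from 111.71 Mb and 0.86 to 0.95 in the other 10. The 3 lowest blocks all joined that part, with the gene side from 112.96 (0.723), 112.86 (0.773) and 112.76 Mb (0.793). The first of these had 2.26 from 2663 contacts in ∆BorC1-2 and 3.13 from 2946 contacts in ∆BorC1 (ratio interval 0.686 to 0.761). From ∆BorC1-2 to ∆BorC1-4 the lowest desert part was the one from 112.01 Mb, with a ratio of 0.89 against 0.95 to 1.08 in the others. Its block with the last gene-side part was the lowest of that comparison, 1.85 from 5201 contacts against 2.24 from 4273 contacts, a ratio of 0.827 (0.795 to 0.862). From ∆BorC1-4 to ∆CTCF the same block was the highest, at 1.17 (1.12 to 1.22), and no desert part left the range 0.93 to 1.06.

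Single places within the desert were then read as a local rise, the log2 of contact between a 30 kb window and the gene side over the mean of both sides 40 to 80 kb away. A side that passed an end of the desert was cut there, as at sequence 111.50 Mb in BorKnockIn and InvIntra. In 120 flank windows read the same way, this rise spread over the 8 libraries by a median of 0.18 and by at most 0.36. The place with the highest rise differed by library in map position. In BorKnockIn it was at 111.49 Mb, in InvIntra and InvC at 112.42 Mb and in InvC∆Bor at 112.40 Mb. Put back into sequence these were 111.51 Mb in BorKnockIn, 111.49 Mb in InvIntra and InvC∆Bor, and 111.47 Mb in InvC. The rise of InvC there was 0.12 (0.06 to 0.17), the smallest of the 4. No rise was read to the right of 112.42 Mb, so in InvIntra and InvC a higher place beyond it could not be seen. Because the places below were picked for a high rise in at least 1 library and the flank windows were not, a larger difference than in the flanks is no test.

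At sequence 111.50 Mb the rise was 0.52 in BorKnockIn (0.47 to 0.57), 0.24 in InvC∆Bor (0.18 to 0.29) and 0.22 in InvIntra (0.18 to 0.25). It was -0.08 in InvC and near 0 in the deletion libraries, with -0.03 (∆BorC1), 0.03 (∆BorC1-2), 0.01 (∆BorC1-4) and -0.04 (∆CTCF). At this window the intervals of the 3 high libraries did not overlap with those of the other 5, while the highest place of InvC lay about 30 kb to the left. In BorKnockIn the window had a relative contact of 2.55 and its sides 1.79 and 1.78, and in InvIntra 1.02 with sides of 0.823 and 0.937. The difference from ∆BorC1 was 0.55 in BorKnockIn, where flank windows differed by at most 0.34. It was 0.27 in InvC∆Bor and 0.25 in InvIntra, where flank windows differed by at most 0.24 and 0.29. With raw counts in place of KR the rise was 0.72 in BorKnockIn, 0.44 in InvIntra and 0.34 in InvC∆Bor. Without the last 100 kb of the gene side it was 0.42, 0.12 and 0.12, in the same order.

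The window at 111.50 Mb met the far edge of the gene side, its last 30 kb, most in BorKnockIn, where relative contact was 5.89 (5.42 to 6.38, 589 contacts, edge read 1 bin to the left). In the deletion libraries it was 2.95 to 3.31, with 3.31 from 257 contacts in ∆BorC1. It was 2.76 in InvIntra (2.59 to 2.93), 2.63 in InvC∆Bor (2.38 to 2.90) and 1.61 in InvC (1.46 to 1.79). BorKnockIn was thus apart from the others, and InvC lowest. In InvIntra and InvC∆Bor this sequence lies at the right end of the desert, much nearer the edge, and the relative contact corrects for distance with each library's own mean only.

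In ∆BorC1 the highest rise was at 111.77 Mb, with 0.17 (0.12 to 0.22), and it was -0.05 in ∆BorC1-4, -0.11 in ∆BorC1-2 and -0.13 in ∆CTCF. In the rearranged libraries it was 0.11 in BorKnockIn, 0.02 in InvIntra, -0.08 in InvC∆Bor and -0.07 in InvC by sequence. Contact of this place with the gene-side edge was 4.16 in ∆BorC1 (3.76 to 4.58, 405 contacts) and 2.47 in ∆BorC1-2 (2.2 to 2.77, 293 contacts). The rise of ∆BorC1-2 minus that of ∆BorC1 was -0.28, and flank windows of this pair differed by up to 0.34.

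In ∆BorC1-2 the highest rise was at 112.08 Mb, with 0.18 (0.14 to 0.22). It was 0.14 in ∆BorC1, 0.04 in ∆BorC1-4 and 0.06 in ∆CTCF. In the rearranged libraries it was 0.06 in BorKnockIn, 0.04 in InvIntra, 0.04 in InvC∆Bor and -0.06 in InvC. The edge contact of this place was 2.87 in ∆BorC1 and 2.83 in ∆BorC1-2, against 2.03 in ∆BorC1-4 and 2.39 in ∆CTCF. Its spread over the 8 libraries, 0.24, was reached by 30 of the 120 flank windows. The rise of ∆BorC1-4 minus that of ∆BorC1-2 was -0.144, and flank windows of this pair differed by up to 0.125.

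**Figure D5:**
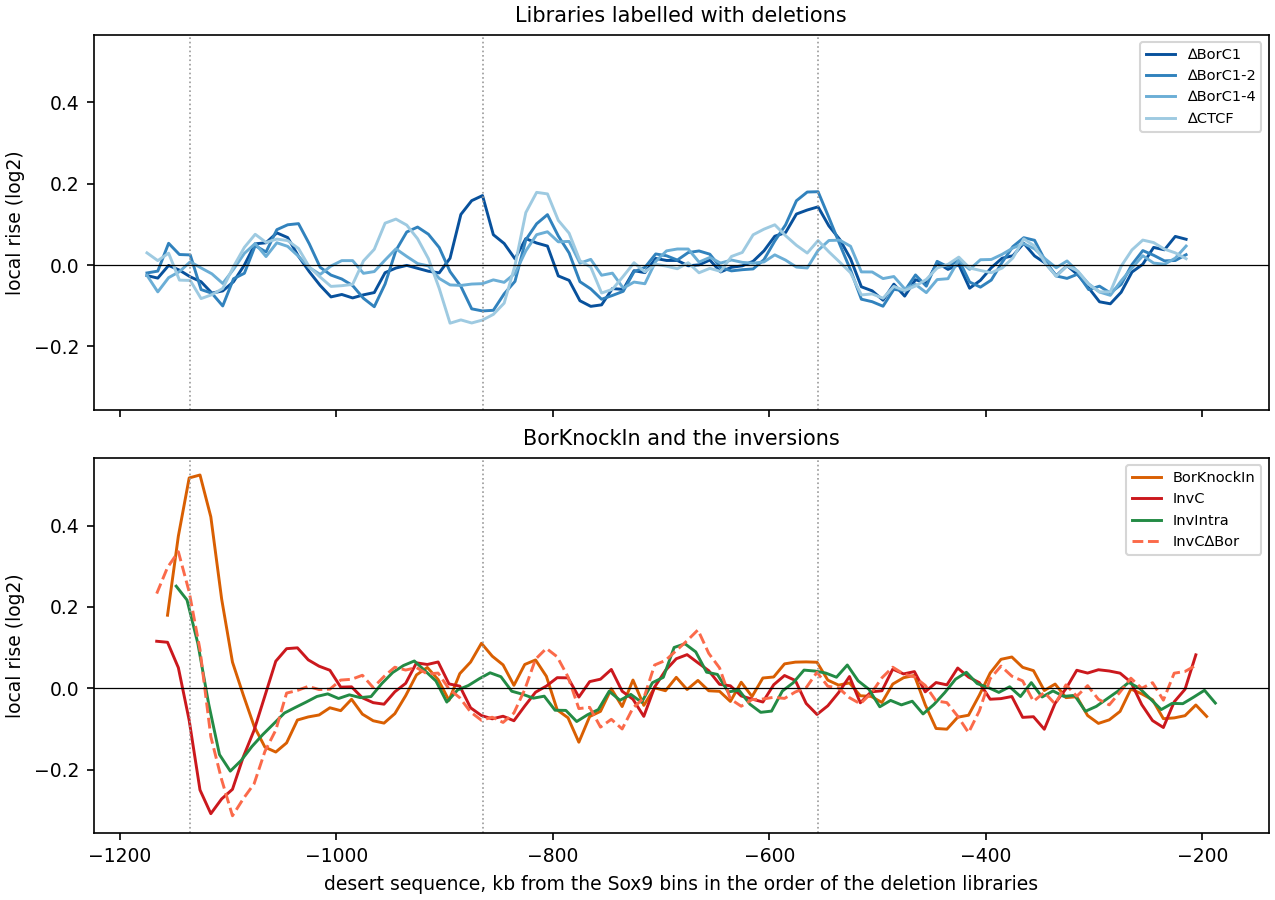
Local rise (log2) along the desert by sequence in mm9 order, for the deletion and the rearranged libraries, in kb from Sox9, with dotted lines at 111.50, 111.77 and 112.08 Mb. The rearranged libraries BorKnockIn, InvIntra and InvC∆Bor stand above 0.2 at 111.50 Mb, ∆BorC1 alone stands at 0.17 at 111.77 Mb, and ∆BorC1 and ∆BorC1-2 stand highest at 112.08 Mb.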

How the data were processed

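Capture Hi-C maps of 8 libraries were used, 1 raw and 1 balanced map each (16 maps). Per the submitters' processing notes, Bowtie2 2.2.6 and Juicer were used with the mm9 build. How reads were filtered is not given in the sources used. Raw values are deposited counts of read pairs, 1 value for each pair of 10 kb bins, and the balanced (KR) values are a signal the authors made from them. Missing KR values (4 for ∆BorC1, 7 for ∆BorC1-4 and 1 for ∆CTCF) lay outside the pairs described.

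KR was divided by the library's mean at each distance and averaged over pairs, in 100 kb blocks. Background blocks covered the whole map, desert and gene side included, lay 100 kb to 1.5 Mb apart and held at least 100 contacts in both libraries. Blocks were named from the 3 highest and 3 lowest per library and comparison, the desert ends, the gene-side parts beside Sox9 and at the far edge, and the desert parts from 111.71 and 112.01 Mb. Places of local rise were chosen after their values were seen. Shares have exact Clopper-Pearson 95% intervals, contact numbers exact Poisson intervals and ratios log-normal intervals. Read pairs were taken as independent. On 12 simulated maps the largest error of a ratio was 0.00991 and that of a rise 0.053 on the log2 scale, and 10 of 12 intervals held the true ratio. The simulated maps were drawn from a known distance curve and divided by that same curve, without balancing. Errors from estimating the distance curve or from balancing are therefore not covered. The pairs and regions were chosen with earlier results of these data known. Software was Python 3.11.15 with pandas 2.3.3, numpy 2.4.6, matplotlib 3.10.9 and scipy 1.17.1. Gene names between Kcnj2 and Slc39a11 came from RefSeq (GRCm38), without its coordinates.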

Additional observations from a re-analysis of the deposited data

How the results depend on the processing

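With 1 library per genotype, no replicate measured how libraries of a genotype differ, and depth ran from 3056502 to 9045698 contacts. No paired analysis was possible because each genotype had 1 library. Of 101 alternative values, 54 stayed within their interval or margin, 46 moved and 1 reversed. The cause of these changes was not tested. Values within the counting interval are left out below.

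For BorKnockIn over ∆BorC1, 0.721 became 0.704 with raw counts, 0.748 with the distance curve of the flanks, 0.625 as a share, 0.703 with thinned counts, 0.648 as a sum of contacts over a sum of expectations, 0.696 without the last 100 kb of the gene side and 0.710 with the gene side read 1 bin to the left. The same alternatives took InvC over InvC∆Bor from 0.660 to 0.671 (raw), 0.62 (share), 0.670 (thinned), 0.617 (sum over sum) and 0.646 (last 100 kb left out). They took InvIntra over InvC∆Bor from 1.19 to 1.21 (raw and thinned), 1.16 (share) and 1.09 (sum over sum). InvC∆Bor over ∆BorC1 went from 0.753 to 0.729 (flank curve) and 0.789 (sum over sum). ∆BorC1-2 over ∆BorC1 went from 0.904 to 0.892 (raw), 0.921 (flank curve), 0.881 (share), 0.888 (thinned) and 0.914 (sum over sum). ∆BorC1-4 over ∆BorC1-2 went from 1.02 to 1.03 (raw and thinned), 1.01 (sum over sum) and 1.04 (last 100 kb left out), and to 0.954 with the flank curve, which reversed its direction. ∆CTCF over ∆BorC1-4 went from 1.00 to 0.988 (raw and thinned), 1.08 (flank curve), 0.969 (share) and 0.989 (last 100 kb left out). The sum over sum, the last 100 kb left out and the shifted gene side were chosen after seeing the data. Leaving out pairs under 200 kb apart kept all 7 ratios within their intervals, and leaving out bins under 0.5 of median coverage removed 0 bins from these pairs and gave no value.

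Past 2-fold in place of 1.5-fold, the count of blocks went from 29 to 4 (BorKnockIn over ∆BorC1), 30 to 2 (InvC over InvC∆Bor), 8 to 0 (InvC∆Bor over ∆BorC1) and 2 to 0 (InvIntra over InvC∆Bor). The last count was 7 with raw counts and 15 of 189 blocks of 50 kb, and that of ∆BorC1-2 over ∆BorC1 went from 0 to 1 of 189. Shares over the map were taken only for KR in 100 kb blocks past 1.5-fold, so these counts have no share beside them. Of 24 likeness values 23 moved little, and BorKnockIn by sequence went from 0.901 to 0.826 with raw counts.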
